A study of Bos taurus with 27 samples.

Results

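Galectins are lectins that bind β-galactosides, and the values described here are those of the galectin genes LGALS1, LGALS3, LGALS4, LGALS7, LGALS8 and LGALS9 and of LGALS3BP, which encodes a secreted glycoprotein that galectins bind. Members were the non-control probes of the arrays whose gene name equals 1 of these 7 names. Of the 7 genes, 6 had a probe, 1 probe each, among the 15008 probes measured, which carry 14952 gene names. LGALS7 had no probe under that name. The family was chosen by the stage levels of LGALS3, which was lower at the middle stage and ended above its early level, so the stage values of LGALS3 are given as a description with no test, and the other 5 members are the ones that were tested.

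The tissue was the rumen epithelium (RE), the stratified lining of the forestomach, biopsied in the same 9 Japanese Black cattle at each of 3 fattening stages, which were the early stage (14 months of age), the middle stage (21 months) and the late stage (29 months). All cattle were castrated, carried a rumen fistula and were fed high-concentrate diets throughout, so no group was kept off such a diet. The paper states that the ration held more forage at the early stage than later, and that crude protein of the concentrate fell from stage to stage. Stage therefore cannot be told apart from age or from the ration. Each biopsy was hybridized to a one-color bovine oligonucleotide array, which gave 9 arrays per stage. A level below is the log2 processed signal of a probe minus the median of its array, so that 0 is the median probe, and a difference is the log2 fold change between stages within animals. The first period is the change from the early to the middle stage, the second period that from the middle to the late stage, and the total period that from the early to the late stage.

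Most galectins are made in the cytosol and leave the cell without a signal peptide. Outside the cell they cross-link N-acetyllactosamine on branched N-glycans of integrins, growth factor receptors and cadherins, and inside it several of them gather on endosomes and lysosomes whose membrane is broken. Galectin-1 and galectin-7 are of the prototype class with a single carbohydrate-binding domain, galectin-3 is the chimera class with an added N-terminal tail, and galectin-4, galectin-8 and galectin-9 carry a pair of different domains joined by a linker. In stratified epithelia galectin-7 is a keratinocyte product, galectin-3 occurs in keratinocytes and macrophages, galectin-4 is known from the digestive tract, and galectin-1 is abundant in stromal cells.

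What the arrays measured for each member is fixed by its probe of 60 bases, printed here because the values below can say no more than these letters capture. The LGALS3 and LGALS3BP probes are shown by their first 30 bases and the others whole, in lower case, as the array design gives them.
LGALS3: tgacataactctgaccagtgcttcgcacac
LGALS4: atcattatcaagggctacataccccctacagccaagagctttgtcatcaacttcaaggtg
LGALS8: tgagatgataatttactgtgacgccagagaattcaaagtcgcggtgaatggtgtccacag
LGALS9: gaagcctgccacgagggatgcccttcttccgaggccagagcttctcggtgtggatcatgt
LGALS1: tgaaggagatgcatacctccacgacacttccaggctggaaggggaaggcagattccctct
LGALS3BP: aaagagttggacacaactgagcgactaaca

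In the cattle build UMD 3.1, on which the array was designed, the LGALS3 probe lies at chr10:67860928-67860987 and the LGALS3BP probe at chr19:54044963-54045022, each as 1 unbroken stretch of 60 bases. The other probes span more of the genome than their own length and so cross an intron: LGALS4 at chr18:48803617-48803871, LGALS8 at chr28:9236649-9239516, LGALS9 at chr19:19754444-19756706 and LGALS1 at chr5:110017294-110017690. No annotation of that build was used here, so exon numbers and untranslated regions are not given. No member probe shared a run of 15 bases with any other probe of the array on either strand. The letters of the LGALS3, LGALS4, LGALS8 and LGALS9 probes run with the coding strand. Those of the LGALS1 probe are the complement of the known galectin-1 coding strand, which reads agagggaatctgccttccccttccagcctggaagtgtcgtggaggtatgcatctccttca over the same bases, and whether its signal is LGALS1 mRNA was not tested. The start of the LGALS3BP probe resembles a common bovine interspersed repeat, and which transcripts it captures was not tested either.

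The middle-stage arrays were dimmer than the others. Their median processed signal was 8.22 to 28.7, against 35.2 to 48.6 on early arrays and 32.2 to 47.0 on late arrays. The share of spots well above background was 48.8% to 71.6% on middle arrays, 68.9% to 78.2% on early arrays and 68.5% to 73.8% on late arrays. Over all probes the median difference was 0.32 in the first, -0.27 in the second and 0.03 in the total period. Over the 6764 probes well above background on every array it was 0.08, 0.10 and 0.14. Arrays also differed by slide, since 8 early arrays shared slide 1, the early array of animal 9 shared slide 2 with 7 middle arrays, 2 middle arrays shared slide 3, and the late arrays lay on slides 4 and 5 alone. The late stage and its slides therefore cannot be told apart. Markers of stratified epithelium were present, with all 9 basal genes, keratins and integrins among them, well above background on every early and late array.

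LGALS3, the chimera galectin, was lowest at the middle stage and highest at the late stage. Its early level ran from 4.63 through a median of 6.13 to 6.53, its middle level from 2.89 through 4.97 to 5.50, and its late level from 6.57 through 7.05 to 7.44. The late levels did not overlap those of either other stage, whereas the early and middle ranges overlapped because the early array of animal 1, at 4.63, lay below most of the middle arrays. Stage means were 5.98 ± 0.58, 4.71 ± 0.84 and 7.04 ± 0.27 (SD, n = 9 each).

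Within animals the LGALS3 difference was -1.27 (SE 0.25) in the first period, a 2.41-fold lower signal, and it was lower in 8 of 9 cattle. Animal 1 was the exception, with a difference of 0.60, and the largest drop was 2.85 in animal 4. The late level exceeded the middle level in all 9 cattle, by 1.59 to 3.83 and on average by 2.33 (SE 0.25), a 5.03-fold difference. It exceeded the early level in all 9 as well, by 0.28 to 2.42 and on average by 1.06, or 2.09-fold. Relative to the median of the bright probes these differences were -1.34, 2.23 and 0.93.

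The lowest middle levels of LGALS3 came mostly from dim arrays. Of the 4 lowest middle levels, 2.89, 4.02 and 4.64 came from animals 4, 8 and 9, whose middle arrays were the 3 with fewer than 60% of spots well above background, and 4.42 came from animal 3. Without those 3 arrays the difference was -0.82 in the first period and 1.89 in the second. Within slide 2 alone, which sets 7 middle arrays against 1 early array, it was -1.18. A fit that held slide as a fixed term gave -0.29 (SE 1.05). The part of slide and brightness in the stage differences of LGALS3 was not tested. The relation of LGALS3 to brightness among the cattle of a stage is given further below.

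**Figure D1:**
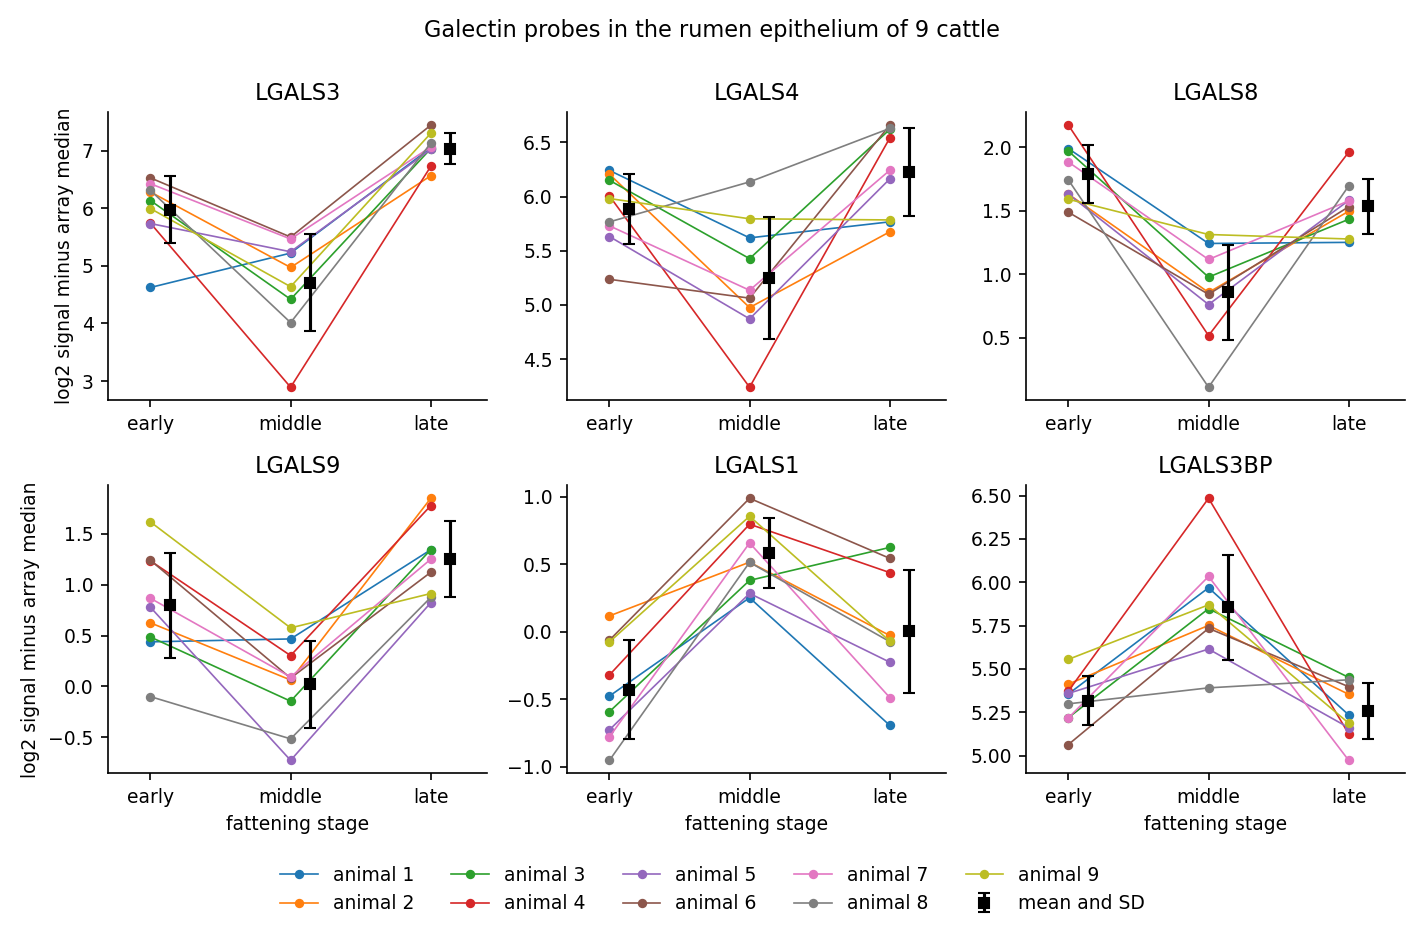
Level of each galectin probe (log2 processed signal minus the array median) by fattening stage, with 1 line per animal and the mean and SD of 9 arrays as black squares with bars; vertical scales differ between panels. LGALS3 was lowest at the middle stage in 8 of 9 cattle and highest at the late stage in all 9, LGALS4, LGALS8 and LGALS9 were lower at the middle stage, and LGALS1 and LGALS3BP were higher there.

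Of the 5 members tested, all 5 passed an adjusted P of 0.05 in the first period, in which 66.5% of all 15008 probes did. LGALS4, LGALS8 and LGALS9 fell, against a background of 21.3% of probes lower, and LGALS1 and LGALS3BP rose, against 45.3% higher. In the second period all 5 passed again, each in the opposite direction, beside 71.5% of all probes, 26.96% higher and 44.6% lower. These periods share the middle-stage arrays. In the total period 1 of 5 passed, LGALS1, beside 20.1% of all probes, 11.2% higher and 8.93% lower, so that the share of members was that of the array. Among the 6764 bright probes 61.8%, 68.2% and 26.0% passed in the 3 periods. Of these bright probes 34.85% rose and 26.98% fell in the first period, and 37.79% rose and 30.43% fell in the second. In the total period 18.01% of them rose and 7.97% fell. The median difference of the 5 was -0.63, 0.67 and 0.35 in the 3 periods, beside 0.32, -0.27 and 0.03 for all probes. No filter on low signal was applied, so all 5 entered every comparison. Overlap of stage ranges, given for LGALS3 and for the members below, has no share of all probes beside it and is a description.

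LGALS4, a galectin of digestive epithelia that stabilizes glycolipid-rich membrane at the apical cell surface, was a bright probe. Its level ran from 5.24 through a median of 5.98 to 6.24 on early arrays, from 4.24 through 5.14 to 6.14 on middle arrays and from 5.67 through 6.24 to 6.66 on late arrays. The ranges of all 3 stages overlapped, and animal 8 was the only one higher at the middle than at the early stage. LGALS4 fell by 0.63 in the first period (SE 0.21, adjusted P = 0.0139, lower in 8 of 9 cattle) and rose by 0.98 in the second (SE 0.21, adjusted P = 4.47e-04, higher in 8 of 9). The late level differed from the early level by 0.35 (adjusted P = 0.277). With slide as a random block these changes were -0.62 and 0.81 and no longer passed, and under normexp background correction they were -1.08 and 1.64.

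LGALS8, which binds sialylated glycans on integrins and, inside the cell, glycans exposed on damaged endosomes, had levels from 1.49 through a median of 1.74 to 2.17 on early arrays, from 0.11 through 0.86 to 1.31 on middle arrays and from 1.25 through 1.53 to 1.96 on late arrays. Early and middle levels did not overlap. The processed signals of LGALS8 on middle arrays were low, at 11.5 to 50.3, yet well above background on all 9. LGALS8 fell by 0.93 in the first period (SE 0.15, adjusted P = 3.80e-05), in all 9 cattle. It rose by 0.67 in the second period (SE 0.15, adjusted P = 5.45e-04, 8 of 9 cattle), a call that was lost with slide as a random block (0.58). Its late level was lower than its early level in 8 of 9 cattle, by 0.26 on average, which did not pass (adjusted P = 0.254). This difference did pass at -0.38 under 75th percentile centering (adjusted P = 0.0484), at -0.39 under centering on the bright probes (adjusted P = 0.0418) and without the 3 dim middle-stage arrays (adjusted P = 0.0318). With slide as a fixed term the first difference turned to 0.55 (SE 0.50), and within slide 2 alone it was -0.69.

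LGALS9, a galectin that binds HAVCR2 on T cells and gathers on damaged lysosomes, had levels from -0.10 through a median of 0.78 to 1.62 on early arrays, from -0.73 through 0.08 to 0.57 on middle arrays and from 0.82 through 1.25 to 1.85 on late arrays. Its probe was near the median of the array, and at the middle stage it was well above background on 8 of 9 arrays. LGALS9 fell by 0.78 in the first period (SE 0.17, adjusted P = 5.93e-04, 8 of 9 cattle). It rose by 1.24 in the second (SE 0.17, adjusted P = 4.08e-06), a 2.35-fold change in all 9 cattle with no overlap between the stages. The late level was higher than the early level in 7 of 9 cattle, by 0.46, which did not pass (adjusted P = 0.0634) but did when animal 9 was left out, at 0.60, under normexp, at 0.32, and with the filter on dim probes. Under normexp the changes of the first and second periods were -0.30 and 0.62. Within slide 2 alone the first was -1.60, but the single early array there, of animal 9, had the highest early level, 1.62, and the middle arrays there were of other cattle.

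LGALS1, the prototype galectin of stromal and many other cells, was measured by the probe whose strand is described above, at processed signals of 14.0 to 59.6, yet well above background on every array. Its level ran from -0.95 through a median of -0.48 to 0.12 on early arrays, from 0.25 through 0.51 to 0.99 on middle arrays and from -0.69 through -0.07 to 0.62 on late arrays. The early and middle levels did not overlap, and the late levels overlapped both. LGALS1 rose by 1.01 in the first period (SE 0.14, adjusted P = 1.10e-05), or 2.02-fold, in all 9 cattle. This was 0.45 under cyclic loess normalization, 0.29 under normexp and 0.63 within slide 2 alone. In the second period it fell by 0.58 (SE 0.14, adjusted P = 0.00137, 8 of 9 cattle), but the difference was 0.01 under cyclic loess (adjusted P = 0.959) and -0.13 under normexp. The late level was 0.43 above the early level (adjusted P = 0.0387, 7 of 9 cattle), a call that was lost under 14 of 22 alternatives.

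LGALS3BP, whose heavily glycosylated product binds galectin-3 and galectin-1 outside the cell, was a bright probe with a level that ran from 5.06 through a median of 5.36 to 5.56 on early arrays, from 5.39 through 5.85 to 6.48 on middle arrays and from 4.97 through 5.23 to 5.45 on late arrays. Middle levels lay above most of the others, with a small overlap. LGALS3BP rose by 0.54 in the first period (SE 0.12, adjusted P = 8.96e-04, 9 of 9 cattle) and fell by 0.60 in the second (SE 0.12, adjusted P = 2.67e-04, 8 of 9 cattle), and both directions turned under normexp, to -0.06 and 0.23. The late and early levels differed by -0.06 (adjusted P = 0.802). The first difference was 0.21 less the median over the whole array and 0.46 less that of the bright probes.

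**Figure D2:**
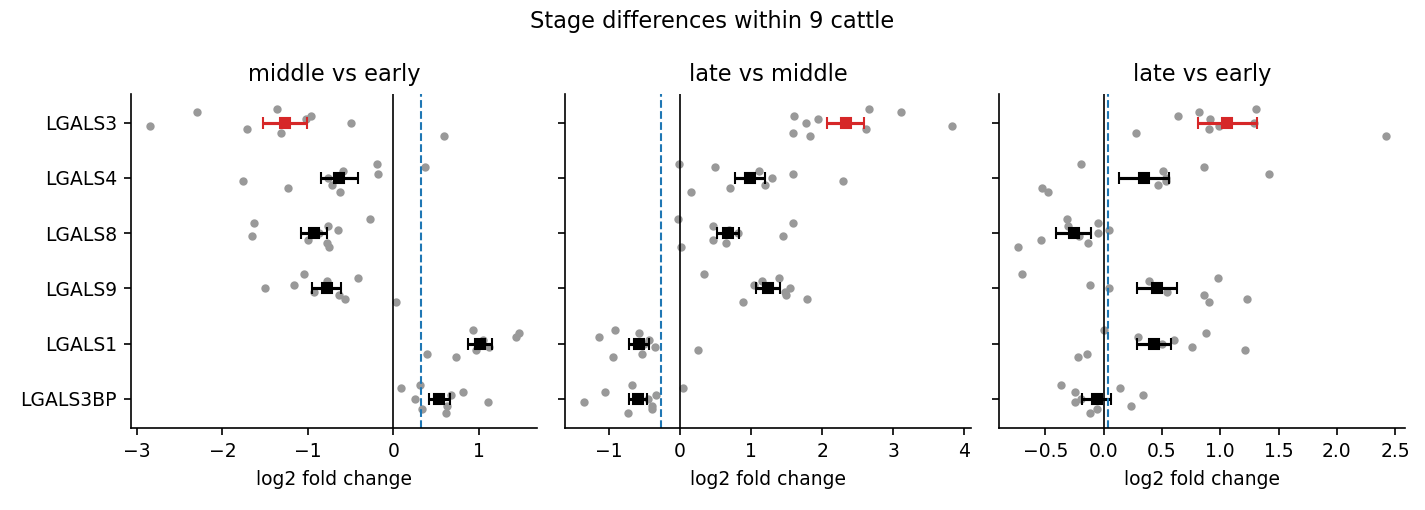
Differences between stages (log2 fold change, horizontal axis) for each galectin probe, with the 9 cattle as gray points, the model estimate and its standard error as squares with bars (red for LGALS3, which was not tested), and the median of all probes as a dashed line. In the first period LGALS3, LGALS4, LGALS8 and LGALS9 lie to the left of 0 and LGALS1 and LGALS3BP to the right, and in the second period each lies on the other side.

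Before centering, the processed signal carries the brightness of each array, and the median array signal was 39.3, 16.7 and 39.6 at the 3 stages in order of age. LGALS3 had a median processed signal of 2823 on early arrays, 605 on middle arrays and 4648 on late arrays. LGALS4 had 2611, 754 and 3080, LGALS8 had 137, 34.9 and 111, and LGALS9 had 69.5, 17.2 and 87.8. Each of these 4 was lower at the middle than at the early stage in all 9 cattle and higher again at the late stage in all 9. For LGALS1 the medians were 26.2, 24.6 and 39.3, and the uncentered signal at the middle stage was higher than at the early stage in 4 cattle and lower in 5. For LGALS3BP they were 1514, 1014 and 1557, and it was higher in 1 animal and lower in 8. Centering subtracts 1 value per array and shifts all members of an array alike, so these counts show the dimmer middle arrays together with the members. LGALS12, for one, was higher at the middle stage in all 9 cattle after centering and lower in all 9 before it.

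**Figure D3:**
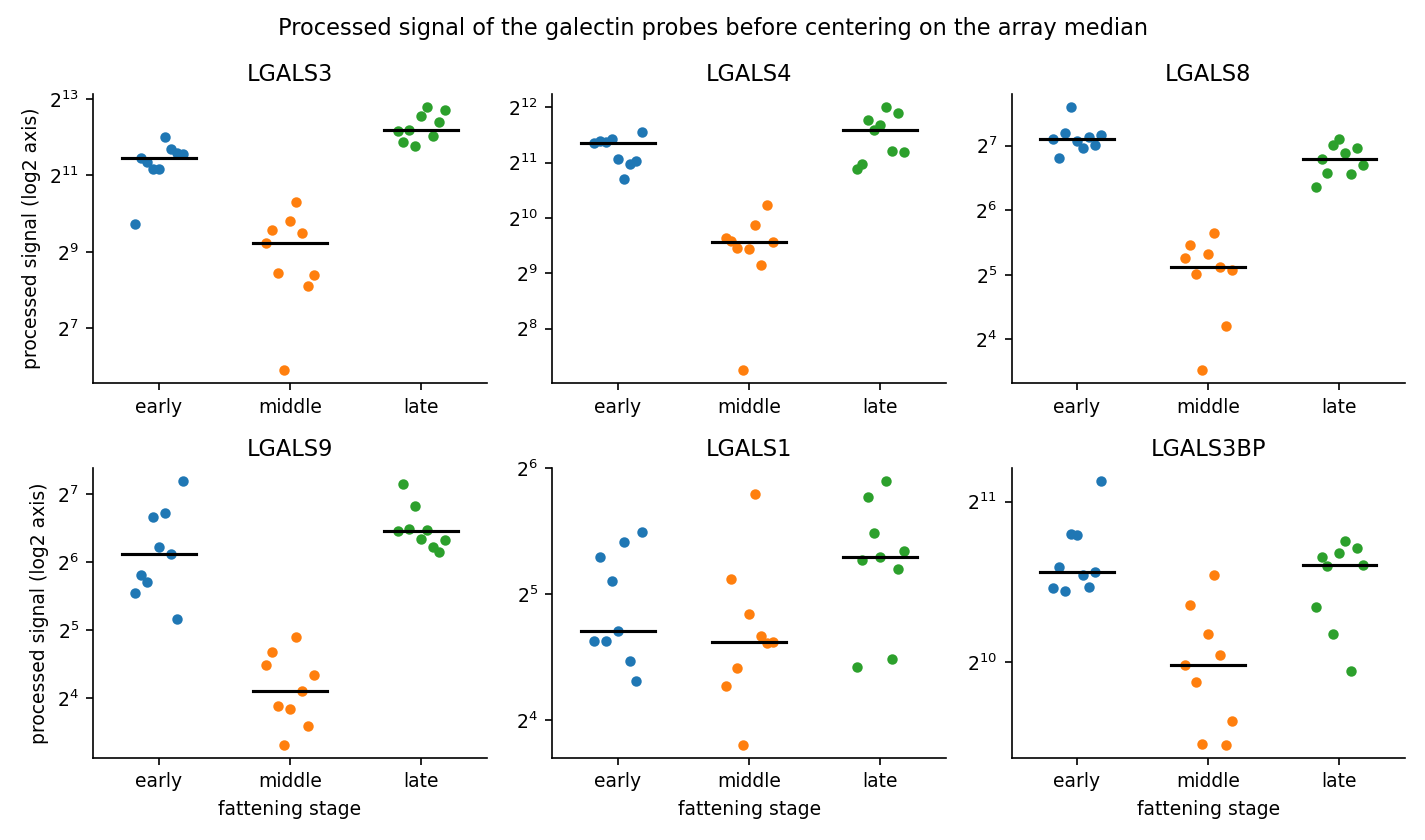
Processed signal of each galectin probe before centering (vertical axis, log2 scale, differing between panels) by fattening stage, with 1 point per array and the median as a bar. The middle-stage medians of LGALS3 (605), LGALS4 (754), LGALS8 (34.9) and LGALS9 (17.2) lie well below those of the other stages, whereas that of LGALS1 (24.6) lies close to its early median (26.2).

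Of the other 5 galectin-related names on the array, none belonged to the chosen members, and their values are given with no test. LGALS7B, listed as a gene of its own beside galectin-7 and a keratinocyte galectin, had median levels of 9.52, 10.26 and 9.64 at the 3 stages in order of age, and its middle level was above its early level in all 9 cattle. LGALS12, a galectin known from fat cells, had 3.98, 4.61 and 4.32, and its difference from the early level was 0.57 in the first period and 0.39 in the total period, higher in all 9 cattle in each. LGALSL, a galectin-like protein thought not to bind lactose, had 4.11, 3.56 and 4.68, with a late level above its middle level in all 9 cattle by 1.20 on average. GRIFIN, a galectin relative first described in the lens, had -0.01, 0.08 and 0.66. The probe of LGALS2, a prototype galectin of the gut, was not well above background on any array.

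Among 6759 probes well above background and measured on all 27 arrays, the 5 with levels most like those of LGALS3 were LGMN (r = 0.958), NCK2 (0.951), SLC35F5 (0.949), HINT3 (0.945) and VPS4B (0.944), where r is Pearson's correlation over 27 arrays that share stage, slide and brightness. LGMN encodes legumain, a lysosomal cysteine protease, and VPS4B an ATPase that takes apart ESCRT polymers on membranes. With each stage's mean removed, r was 0.887 for LGMN and 0.801 to 0.874 for the others. LGMN differed by -0.96 in the first period and by 1.40 in the second, beside -1.27 and 2.33 for LGALS3.

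Within a stage, the level of LGALS3 was set against each of the other 5 members and against the share of spots well above background over the 9 cattle, 18 relations in all. None passed after Benjamini-Hochberg adjustment, with a smallest adjusted P of 0.225 by a two-sided exact permutation test. That relation was with LGALS9 at the late stage, where r was -0.78 (exact P = 0.0125) and Spearman's rho was -0.58 (exact P = 0.108, adjusted 0.638). It was -0.75 over the 8 late arrays of slide 4 and -0.78 without the 2 cattle farthest from the median of LGALS3. At the middle stage LGALS3 and the share of spots well above background had r = 0.55 (exact P = 0.12, adjusted 0.704), and rho was 0.47 (exact P = 0.213). Over the 7 middle arrays of slide 2 this r was 0.71, and without the 2 cattle farthest from the median of LGALS3 it was 0.39. It was 0.63 under 75th percentile centering, 0.66 under quantile and 0.69 under cyclic loess normalization.

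The surface and matrix glycoproteins that galectins bind were counted from a list of 37 genes, 35 of them on the array. In the first period 13 rose and 7 fell, in the second 6 rose and 19 fell, and in the total period 1 rose and 7 fell. The share that rose was 37.1% in the first period and 17.1% in the second, beside 45.3% and 26.96% of all probes, and the share that fell was 20.0% and 54.3%, beside 21.3% and 44.6%. In the total period 2.86% rose and 20.0% fell, beside 11.2% and 8.93% of all probes. The medians of the list were 0.04, -0.43 and -0.18, beside 0.32, -0.27 and 0.03 for all probes. ALCAM, an adhesion molecule of the immunoglobulin family, rose by 1.17 and then fell by 1.29. LAMP2, a lysosomal membrane glycoprotein that galectin-3 binds, fell by 0.71 in the first period. MCAM, the adhesion molecule CD146, fell by 2.17 in the second period and by 2.35 in the total period. CEACAM1, a cell adhesion receptor of epithelia, rose by 1.82 in the second period and by 1.51 in the total period, and CD9, a tetraspanin, rose by 1.44. CDH1, the E-cadherin of epithelial junctions, fell by 0.64 in the total period (adjusted P = 0.00137). Moving the same way in all 9 cattle was a condition for naming a gene here and is not a result.

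Enzymes of N-glycan branching and N-acetyllactosamine, with some that act on O-glycans or add sialic acid, were counted from a list of 32 genes, 27 of them on the array. In the first period 10 rose and 8 fell, in the second 6 rose and 11 fell, and in the total period 0 rose and 1 fell by limma. Thus 37.0% rose and 29.6% fell in the first period, beside 45.3% and 21.3% of all probes. In the second period 22.2% rose and 40.7% fell, beside 26.96% and 44.6%. In the total period 0% rose and 3.70% fell, beside 11.2% and 8.93%. The medians were 0.28, -0.26 and -0.08, beside 0.32, -0.27 and 0.03 for all probes. Without the 3 dim middle-stage arrays 3 rose and 3 fell in the total period. MGAT4B, a branching N-acetylglucosaminyltransferase, rose by 0.88 and then fell by 0.65. ST3GAL1, which caps O-glycans with sialic acid, rose by 1.20 and then fell by 0.85. B4GALT3, a galactosyltransferase that makes N-acetyllactosamine, rose by 0.28 and then fell by 0.36.

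The cytoplasmic partners of galectins, with the proteins that act on damaged endosomes, were counted from 32 genes, 30 of them on the array. In the first period 5 rose and 13 fell, in the second 17 rose and 4 fell, and in the total period 5 rose and 4 fell. The share that fell in the first period was 43.3%, beside 21.3% of all probes, and 16.7% rose, beside 45.3%. In the second period 56.7% rose, beside 26.96%, and 13.3% fell, beside 44.6%. In the total period 16.7% rose and 13.3% fell, beside 11.2% and 8.93%. All 30 genes were well above background on every early and late array, and 24 on every middle array. Of the bright probes 26.98% fell and 34.85% rose in the first period. In the second 37.79% of them rose and 30.43% fell, and in the total period 18.01% rose and 7.97% fell. The medians were -0.27, 0.39 and 0.21, beside 0.32, -0.27 and 0.03 for all probes and 0.08, 0.10 and 0.14 for the bright probes, and under cyclic loess the median of all probes was itself -0.61 and 0.67 in the first and second periods. SQSTM1, the autophagy receptor p62, fell by 2.45 (adjusted P = 3.44e-10) and then rose by 2.11. PDCD6IP, an ESCRT partner also called ALIX, fell by 1.19, and CHMP4B, an ESCRT subunit, fell by 1.13 and then rose by 1.47. CTNNB1, the β-catenin that galectin-3 binds, fell by 0.95. RRAGA, a lysosomal GTPase, and GABARAPL1, an autophagosome protein, each rose by 1.39 in the second period. At the late stage TFEB, a transcription factor for lysosomal genes, was 0.42 above its early level and OPTN, another autophagy receptor, 0.40 above it, whereas MTOR was 0.51 below it. Without the 3 dim middle-stage arrays the list had 6 up and 12 down in the first period, 17 up and 4 down in the second, and 12 up and 6 down in the total period. Calls over all 15008 probes in the total period also rose without those arrays, from 3019 to 4873.

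**Figure D4:**
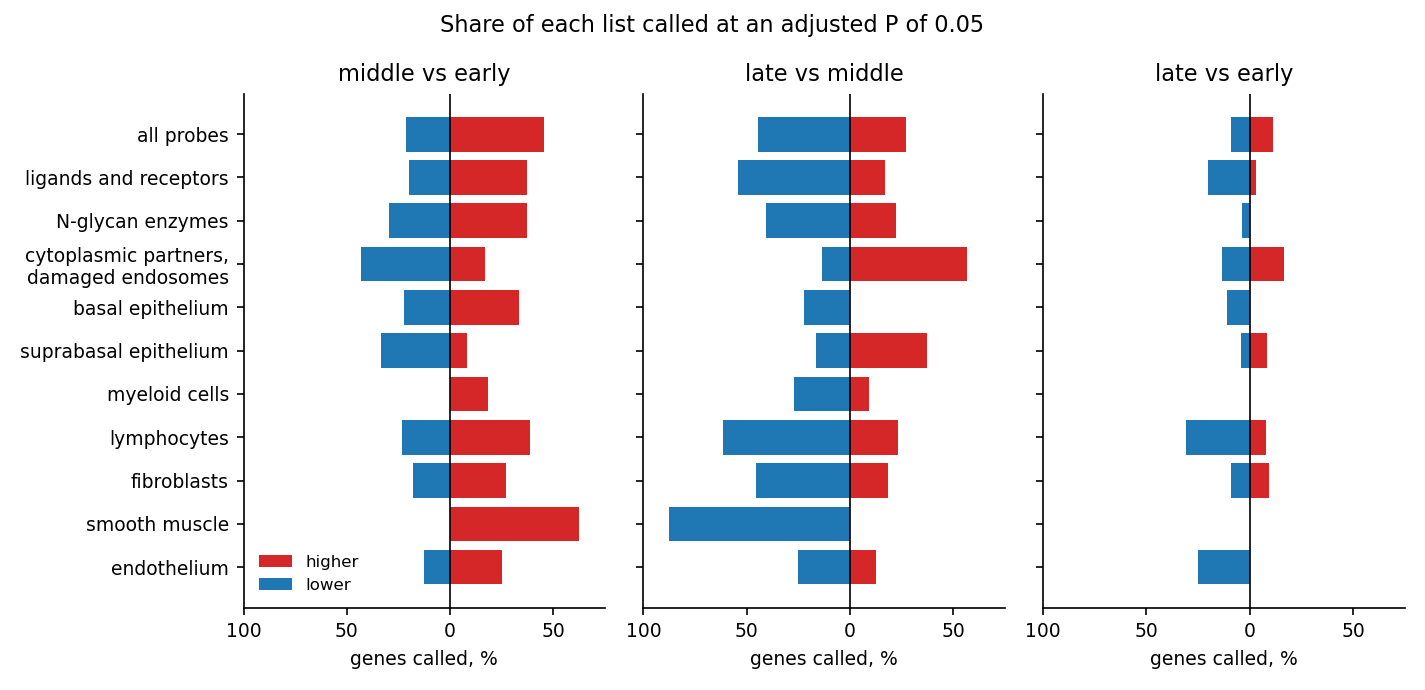
Percent of the genes of each list on the array that passed an adjusted P of 0.05, higher (red, to the right) or lower (blue, to the left), in the 3 comparisons, with all 15008 probes in the top row. The list of cytoplasmic partners has 13 of 30 genes lower in the first period and 17 higher in the second, against 21.3% and 26.96% of all probes. Of the 6764 bright probes, not drawn here, 26.98% were lower in the first period and 37.79% higher in the second.

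Markers of the cells that a biopsy could hold moved with the stages too, and fewer cells of a type and less RNA per cell cannot be told apart in these samples. Of 24 suprabasal and cornifying genes on the array, 2 rose and 8 fell in the first period and 9 rose and 4 fell in the second. Thus 8.33% rose and 33.3% fell in the first period, beside 45.3% and 21.3% of all probes. In the second period 37.5% rose and 16.7% fell, beside 26.96% and 44.6%. Of the bright probes 34.85% rose and 26.98% fell in the first period, and 37.79% rose and 30.43% fell in the second. The larger count in each period went in the direction of LGALS3, LGALS4, LGALS8 and LGALS9. LGALS1, LGALS3BP and the keratinocyte galectin LGALS7B went the other way, LGALS7B by 0.75 in the first period and -0.63 in the second. Without the 3 dim arrays 4 rose and 7 fell and then 11 rose and 5 fell. The median of the list was 0.05 in the first period and 0.47 in the second, and 14 and 11 genes were not called. IVL, the cornified envelope protein involucrin, fell by 1.99 and then rose by 2.58, and TGM1, the transglutaminase that cross-links that envelope, fell by 1.54 and then rose by 1.81, whereas DSG3, a desmosomal cadherin, rose by 0.45 in the first period. The mean level of the 24 genes was 2.85 to 3.94 on early arrays, 2.49 to 3.61 on middle arrays and 3.12 to 3.90 on late arrays, and 1, 3 and 3 of the genes were not well above background on any array of those stages. Of 9 basal genes, 3 rose and 2 fell in the first period and 0 rose and 2 fell in the second by limma, with mean levels of 4.13 to 5.02, 4.50 to 5.23 and 4.32 to 4.86.

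Of 8 smooth muscle genes, 5 rose and 0 fell in the first period and 0 rose and 7 fell in the second, which is the direction of LGALS1 and LGALS3BP and also that of the larger share of all probes, 45.3% of which rose in the first period and 44.6% of which fell in the second. Without the 3 dim arrays these counts were 2 rose and 3 fell in the respective periods. Their mean level was 0.75 to 2.84, 1.04 to 3.74 and 0.70 to 1.76 at the 3 stages. Of 11 fibroblast genes, 3 rose and 2 fell and then 2 rose and 5 fell, with mean levels of 1.00 to 3.08, 0.94 to 3.33 and 0.94 to 2.57. Of 11 myeloid genes on the array, 2 rose and 0 fell and then 1 rose and 3 fell, with mean levels of 0.35 to 1.59, 0.67 to 1.35 and 0.36 to 1.35, and 2 of them were not well above background on any array of a stage. Of 13 lymphocyte genes, 5 rose and 3 fell and then 3 rose and 8 fell, with mean levels of -0.93 to 0.25, -1.14 to 0.06 and -1.28 to -0.42, and without the 3 dim arrays 2 rose and 3 fell and then 3 rose and 5 fell. Of 8 endothelial genes, 2 rose and 1 fell and then 1 rose and 2 fell, with mean levels of 0.97 to 1.66, 0.69 to 1.97 and 0.76 to 1.46. Beside the counts of these lists, 45.3% of all probes rose and 21.3% fell in the first period. In the second period 26.96% rose and 44.6% fell. The part of any of these cells in the galectin values was not tested.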

How the data were processed

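RNA of 27 RE biopsies was labeled with cyanine 3, and the authors extracted the spot values with Agilent Feature Extraction. The deposited intensity values are processed signals on a linear scale, after background subtraction, and the deposited files mark each spot with 0 or 1 as well above background, saturated or an outlier, which are other values than intensities. The processing notes name version 9.5 of that software and the file headers 11.0.1.1. The authors also deposited log2 values centered near the 75th percentile of each array (column medians -3.07 to -2.60), used as an alternative.

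Processed signals were log2 transformed, outlier spots were left missing, spots of a probe were averaged and the array median was subtracted. In R 4.3.3, limma 3.58.1 (with statmod 1.5.0) fitted stage and animal to all 27 arrays, with Benjamini-Hochberg adjustment over 15008 probes and a threshold of 0.05. Each animal gave 1 array per stage. The sample titles give a running number within each stage, and arrays with the same number were assumed to be of the same animal, which is the pairing. Residuals around stage means correlated at 0.158 on average between arrays of an animal (-0.151 to 0.461) and at -0.020 between cattle. The fit was tested on simulated data. RefSeq accessions in the gene table matched 5 of 6 members. Members and lists were chosen with earlier results of these data known. Named genes of a list were up to 4 per comparison with the largest change among those past the threshold, moving 1 way in the 9 cattle and above background on each array compared. Where a gene had several probes the brightest stood for it. For arrays, the number of arrays and the signal over background limit the precision. Alternatives were other centerings, quantile and cyclic loess normalization, normexp correction with an offset of 50, a filter on dim probes, outlier spots kept, the deposited log2 values, no animal block, slide blocks, slide 2 and the first scan day alone, fits to 2 stages, the methods' t-test and each animal left out. Leaving out the 3 middle-stage arrays with under 60% of spots well above background was added after the data were seen.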

Additional observations from a re-analysis of the deposited data

Results flagged for a closer look

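The LGALS3 level of animal 1 at the early stage, 4.63, stood apart from the other 8 early arrays, since its gap to the next array was 0.583 of the whole early range, above Dixon's critical value for 9 arrays. It was 1 of 18 combinations of member and stage examined, and chance gives about 1 in 20. Without animal 1 the LGALS3 difference was -1.50, 2.39 and 0.89 in the first, second and total periods, beside -1.27, 2.33 and 1.06 with all cattle. The same array had a processed signal of 852 for LGALS3, where the highest early array had 4111.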

How the results depend on the processing

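The stage pattern of LGALS3 chose the family, so its directions under the alternatives are a description with no test. None turned, but with slide as a fixed term the first difference was -0.29 (SE 1.05), which leaves its sign unsettled. Slide as a fixed term, slide 2 alone and the first scan day alone gave the first period only. In the first period the number of the other members that passed was 5 or 4 under the alternatives, except that it was 0 with slide as a fixed term and within slide 2 alone, where the single early array is assumed to vary like the middle ones. In the second period it was 5 or 4, and 3 with slide as a random block. In the total period, in which LGALS1 alone passed, the number was 0 with the deposited log2 values, without the replicate block for animals, with slide as a random block, under the methods' t-test and in fits to 2 stages. It was 2 with the filter on dim probes and without the 3 dim middle-stage arrays, and 0 to 2 with each animal left out in turn. Leaving out any of animals 3 to 8 gave 0 and leaving out animal 9 gave 2. The member that passed was LGALS8 in place of LGALS1 under 75th percentile centering and under centering on the bright probes, and LGALS9 under normexp. Without the replicate block the numbers of the first and second periods were 5 and 5.

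Values that turned were LGALS1 in the second period under cyclic loess (0.0084), LGALS8 in the first period with slide as a fixed term (0.55), and LGALS3BP under normexp (-0.055 and 0.23 in the first and second periods, and 0.17 in the total period). The cause was not tested. Probes called over the whole array went from 9986 and 10734 in the first and second periods to 6366 and 6898 with the filter on dim probes, which tests fewer probes. In the first period they were 1238 with slide as a fixed term and 7 within slide 2. In the total period 3019 became 1194 under normexp, 250 with slide as a random block, 4814 in fits to 2 stages and 4873 without the 3 dim arrays. The share of called probes that were higher in the first period was 68.0%, and it was 51.6% under quantile normalization, 50.2% with the filter on dim probes and 21.0% under cyclic loess, which moved the median difference of all probes to -0.61 and 0.67 in the first and second periods. None of the 18 relations of LGALS3 within a stage passed under 5 alternatives by exact permutation tests, with 1 or 2 at an unadjusted P under 0.05. Signal over background was low for LGALS1 and LGALS9, and at the middle stage for LGALS8 as well. The late stage cannot be told apart from its slides.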
